A study of Homo sapiens with 6 samples.

Results

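The clustered protocadherins are neighbouring cell adhesion genes on the long arm of human chromosome 5, at 5q31. They were chosen by symbol, as rows whose symbol starts with PCDHA, PCDHB or PCDHG followed by a number or a letter and number, with pseudogenes left out. The rule found 53 genes among 59715 gene IDs: 15 of the alpha cluster (PCDHA), 16 of the beta cluster (PCDHB) and 22 of the gamma cluster (PCDHG). Their RNA was compared between MLL4KO and MLL4WT cells of HCT116, an established human colorectal carcinoma line, in 3 libraries of poly(A)-selected RNA for each genotype. The MLL4KO cells are labelled as knockout for MLL4, a histone H3 lysine 4 methyltransferase of enhancers, and the MLL4WT cells as wild type for it. Both were grown in the same serum-supplemented medium, and the labels name no other allele or agent. The labels do not say where the deletion lies, or whether the libraries are separate cultures, separate clones or repeats of 1 culture, so p-values measure only the spread between these samples.

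Each clustered protocadherin gene encodes a transmembrane protein with cadherin repeats. In neurons each cell uses a small set of them, chosen promoter by promoter, and the proteins bind their own kind on neighbouring cells, which lets a neuron tell its own branches from those of other neurons. In the alpha and gamma clusters every variable first exon carries its own promoter and is spliced to constant exons shared by the whole cluster, while the beta genes are encoded by their own exons. CTCF and cohesin bring an active promoter together with distant enhancers, DNA methylation keeps the other promoters silent, and the last genes of the alpha and gamma clusters, called C type, are regulated apart from the alternate ones.

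Library totals ran from 14775580 to 19736751 counts in MLL4KO and from 6829400 to 17828774 in MLL4WT, where replicate 1 was the shallowest. The 53 genes together held 257, 238 and 174 counts in MLL4KO replicates 1 to 3 and 97, 210 and 261 counts in MLL4WT replicates 1 to 3. Levels are therefore close to the detection limit: 3 counts, the limit that a count of 0 allows, corresponded to 0.149 to 0.199 CPM (counts scaled to library size) in MLL4KO libraries and to 0.172 to 0.446 CPM in MLL4WT libraries. The targeted gene gave no check of the labels, since KMT2D, usually meant by MLL4, was at 232 ± 9.56 CPM in MLL4KO and 235 ± 4.60 CPM in MLL4WT (SD, n = 3 each; log2 fold change -0.01 ± 0.05, edgeR adjusted p = 0.832), with a change of 0.05 under total-count scaling and 0.04 under upper-quartile scaling. Both epithelial and neuronal markers bear on the genes described here. Among colon epithelial markers EPCAM, CDH1, KRT8, KRT18, KRT19 and CDX2 passed the filter, whereas CDX1 was at 0 in all 6 libraries and CDH17 had 1 count in all, in MLL4WT replicate 3. Of 10 neuronal markers, 6 were too low to test and their summed counts were 113, 10 and 11 in MLL4KO replicates 1 to 3 and 2, 14 and 79 in MLL4WT replicates 1 to 3. MLL4KO replicate 1 and MLL4WT replicate 3 thus stood apart from the other 4 libraries, and they share a code in the column names of the deposited table. DCX, a microtubule protein of young neurons, had 37 counts in MLL4KO replicate 1 and 20 in MLL4WT replicate 3, against at most 1 in each other library. These 2 libraries are called those with neuronal transcripts below, after the 6 untested markers only. The 4 tested neuronal markers had counts in all 6 libraries. SYT1, for example, was at 4.82 to 5.55 CPM in MLL4KO and 7.70 to 11.1 CPM in MLL4WT libraries. Results below are also given without MLL4KO replicate 1 and MLL4WT replicate 3 where that changed them. The part of the neuronal transcripts in the protocadherin counts was not tested.

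The PCDHA genes span chr5:140786136-141012347, the PCDHB genes chr5:141051135-141249365 and the PCDHG genes chr5:141330571-141512981, all on the plus strand (GRCh38, GENCODE release 29). The constant exons of PCDHA are 59, 89 and 2718 bases long and are annotated in 15, 15 and 14 of its 15 genes. Those of PCDHG are 59, 89 and 2033 bases long, in 22, 22 and 21 of its 22 genes. A read from these exons does not name the isoform. Of the 31-base words in each gene's annotated transcripts, a median of 45.6% in PCDHA (range 28.5 to 71.6%), 75.2% in PCDHB (41.6 to 92.3%) and 54.8% in PCDHG (26.6 to 61.7%) occurred in no other gene. How the authors' counting shared the remaining reads among isoforms is not visible in the counts. Isoform values in PCDHA and PCDHG are therefore uncertain to a degree that was not measured, and are given beside cluster sums.

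RefSeq promoter windows (GRCh38.p14, plus strand, 250 bases before to 50 after a start) matched 47 of the 53 genes. Those of the called genes PCDHAC2 and PCDHGB7 are shown because they moved in opposite directions. PCDHB14 is shown as the most abundant PCDHB gene, and PCDHGA10, chosen after its values were seen, as the most abundant gene of all and the neighbour just upstream of PCDHGB7. Capitals mark each CGCT on either strand (AGCG on the other). CGCT is the core of a sequence element known from many, but not all, clustered protocadherin promoters. A word of 4 bases is common, standing in 70.0% of RefSeq windows of this length, so a match alone does not show that element. The windows lie at chr5:140966226-140966525, chr5:141417427-141417726, chr5:141412737-141413036 and chr5:141223093-141223392, in the order printed.
PCDHAC2: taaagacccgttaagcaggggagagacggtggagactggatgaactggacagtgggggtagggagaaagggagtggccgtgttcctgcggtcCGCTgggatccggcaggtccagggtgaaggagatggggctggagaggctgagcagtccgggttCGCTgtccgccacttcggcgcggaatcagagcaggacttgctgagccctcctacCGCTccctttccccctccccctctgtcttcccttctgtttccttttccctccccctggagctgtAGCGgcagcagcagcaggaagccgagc
PCDHGB7: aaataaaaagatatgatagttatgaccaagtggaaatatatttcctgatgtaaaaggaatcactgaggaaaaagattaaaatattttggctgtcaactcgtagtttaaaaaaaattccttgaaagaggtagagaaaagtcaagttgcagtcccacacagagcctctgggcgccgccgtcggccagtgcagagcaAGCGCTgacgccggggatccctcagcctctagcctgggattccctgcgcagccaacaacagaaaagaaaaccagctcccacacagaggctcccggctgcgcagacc
PCDHGA10: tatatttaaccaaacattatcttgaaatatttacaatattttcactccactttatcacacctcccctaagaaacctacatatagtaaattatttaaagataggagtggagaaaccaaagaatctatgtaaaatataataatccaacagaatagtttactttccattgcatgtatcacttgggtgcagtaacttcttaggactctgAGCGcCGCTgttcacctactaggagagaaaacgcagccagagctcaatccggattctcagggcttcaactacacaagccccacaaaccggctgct
PCDHB14: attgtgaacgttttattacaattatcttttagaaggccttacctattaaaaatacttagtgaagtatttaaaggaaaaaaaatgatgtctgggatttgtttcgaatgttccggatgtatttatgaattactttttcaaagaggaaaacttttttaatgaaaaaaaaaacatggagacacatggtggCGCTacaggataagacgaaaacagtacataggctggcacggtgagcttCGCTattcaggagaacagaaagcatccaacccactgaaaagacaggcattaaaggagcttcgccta
At least 1 CGCT stood in the windows of 46 of 47 matched genes (97.9%; PCDHA9 had none), against 70.0% of 35116 RefSeq windows of this length. The PCDHAC2 window held 4 matches and the other 3 windows held 2 each, which overlap in PCDHGB7. By the GENCODE gene starts these windows are placed unlike. That of PCDHAC2 opens just before the gene start (140966235) and that of PCDHB14 past it (141222932), so both lie mostly or wholly inside the genes. Those of PCDHGB7 and PCDHGA10 lie mostly upstream of the gene starts (141417645 and 141412987). A longer word, GGTGGCGCT on either strand, was in 13 of 14 matched PCDHB genes, all but PCDHB1, in 0 of 13 PCDHA and in 0 of 20 PCDHG genes, against 0.501% of all windows. It was found by looking for the word of 9 bases most shared among these windows, and it overlaps the CGCT. The 5 C type windows, which come from 4 genes, had a median GC content of 62.3% (59.0 to 66.0%) and 23 CpG (15 to 27). Some gamma B windows reached the same range, up to 65.0% and 25 CpG in PCDHGB6. Medians over all windows of a cluster were 37.3% and 7 for PCDHA, 40.8% and 7.5 for PCDHB and 47.3% and 10 for PCDHG, beside 58.7% and 14 for all RefSeq windows. PCDHAC2 had 63.0% GC and 15 CpG, PCDHGB7 47.7% and 11, PCDHGA10 38.3% and 5, and PCDHB14 35.7% and 8. These matches and compositions are descriptions of the windows and show no binding or methylation in the cells.

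At the locus PCDHAC2 fell and PCDHGB7 rose in MLL4KO, while PCDHGA10, the most abundant of these genes, did not pass the test. Of the 53 genes, 45 had at least 1 count and 8 were at 0 in every library, 4 of them PCDHA and 4 PCDHB. A further 28 had 1 to 10 counts over all 6 libraries, and 5 had a count in each of the 6. Only 4 genes reached the level needed for testing, about 0.648 CPM in 3 libraries, and the other 49 stayed at or below 1.60 CPM in each library. In the edgeR quasi-likelihood fit over all 14543 testable genes, 1 of the 4 rose (PCDHGB7), 1 fell (PCDHAC2) and 2 did not pass an adjusted p under 0.05 (PCDHGA10 and PCDHB14). Over all tested genes 41.4% were called, 19.8% as higher and 21.6% as lower in MLL4KO, so 2 calls among 4 genes are near the background. PCDHAC2 passed the filter through MLL4WT alone and PCDHGB7 through MLL4KO alone, and genes admitted that way had to differ. For 3 of the 4 genes no MLL4KO library overlapped the MLL4WT range, against 52.5% of all tested genes. Without MLL4KO replicate 1 and MLL4WT replicate 3, PCDHAC2 fell and none rose, beside 1656 rises and 1898 falls over all tested genes.

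**Figure D1:**
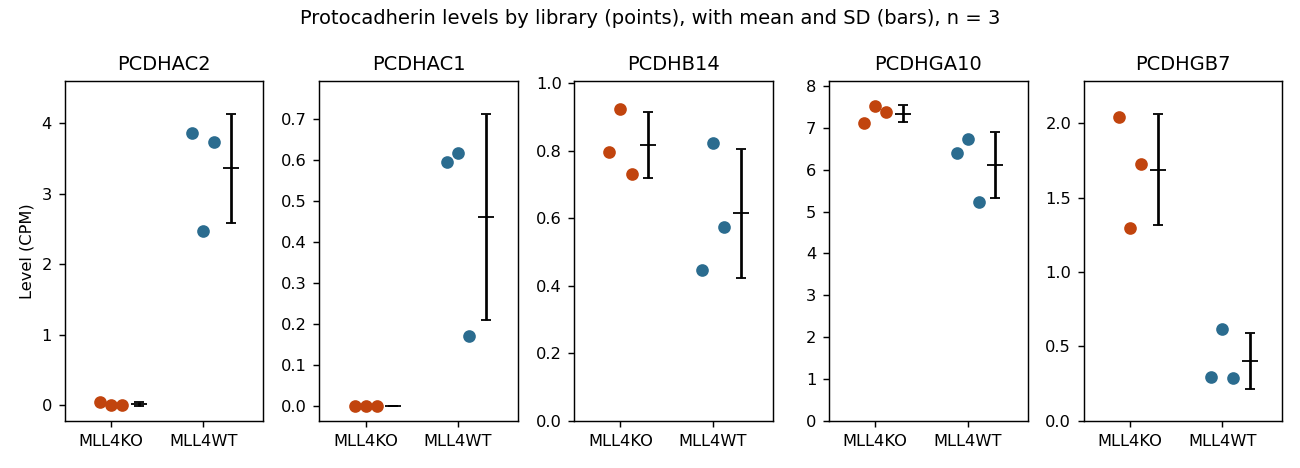
Levels in CPM (linear axes that start at or just under 0) of 5 clustered protocadherins in each of 3 MLL4KO and 3 MLL4WT libraries, as points, with mean and SD as bars. PCDHAC2 and PCDHAC1 lie at or near 0 in MLL4KO, PCDHGB7 is between 1.29 and 2.04 CPM in MLL4KO and at most 0.617 CPM in MLL4WT, and PCDHGA10 differs little between the genotypes.

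PCDHAC2, the last C type gene of the alpha cluster (ENSG00000243232, chr5:140966235-141012344), was almost absent from MLL4KO cells. It had 1, 0 and 0 counts in MLL4KO replicates 1 to 3, against 26, 36 and 65 counts in MLL4WT replicates 1 to 3. As CPM this is 0.0497, 0 and 0 in MLL4KO and 3.86, 2.47 and 3.73 in MLL4WT, so every MLL4WT library lies far above every MLL4KO library. The mean was 0.0166 ± 0.0287 CPM in MLL4KO and 3.36 ± 0.770 CPM in MLL4WT (SD, n = 3 each). From 1 count against 127, the level was 169-fold lower in MLL4KO, with a 95% interval of 29.7 to 6708 that covers counting error only. The fitted log2 fold change, which depends on the prior count, was -6.90 ± 0.57 (edgeR adjusted p = 2.55e-06), and 10 of the 14543 tested genes, PCDHAC2 included, were as low or lower. PCDHAC2 passed the filter through MLL4WT alone, so this rank is no separate evidence of the fall. Without the 2 libraries with neuronal transcripts, the remaining MLL4KO libraries held 0 and 0 counts and the remaining MLL4WT libraries 26 and 36, and the call held (edgeR adjusted p = 0.00148). In bulk RNA, fewer expressing cells and less RNA per cell cannot be told apart.

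PCDHAC1, the other C type gene of the alpha cluster and the immediate upstream neighbour of PCDHAC2, was too low to test. It had 0, 0 and 0 counts in MLL4KO and 4, 9 and 3 in MLL4WT, so all MLL4WT libraries had reads and none of the MLL4KO libraries did. Taking 3 counts as the floor for the MLL4KO group, it was at least 7.08-fold lower there. With no filter on low counts its edgeR adjusted p was 0.000565, in a fit where 23.4% of 27126 genes were called. Its promoter window had 66.0% GC, 27 CpG and 6 CGCT.

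The 13 alternate PCDHA genes, each with its own variable exon upstream of the C type genes, held 16 counts in MLL4KO and 28 in MLL4WT, and the groups overlapped. In MLL4KO, 10 of the 16 were PCDHA4 in replicate 1, 1 of the libraries with neuronal transcripts, and replicates 2 and 3 had no PCDHA4 count. MLL4WT libraries had 1, 2 and 0 counts of PCDHA4. PCDHA1 had 1, 0 and 1 counts in MLL4KO and 0, 4 and 7 in MLL4WT, where replicate 3 is the other library with neuronal transcripts. PCDHA6 and PCDHA7 had counts in that library alone, 5 and 2. PCDHA2, PCDHA3, PCDHA9 and PCDHA13 were at 0 throughout.

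Summed over its genes, the alpha cluster was lower in MLL4KO. Its summed level was 0.647, 0.123 and 0.133 CPM in MLL4KO replicates 1 to 3, against 5.35, 3.57 and 4.77 CPM in MLL4WT replicates 1 to 3. The means were 0.301 ± 0.299 and 4.56 ± 0.909 CPM (SD, n = 3 each), 15.2-fold lower in MLL4KO with no overlap, a log2 ratio of -3.92 given as a description with no test. Without MLL4KO replicate 1 the log2 ratio was -5.15, and without both libraries with neuronal transcripts -5.12. PCDHAC2 made up 1 of 17 PCDHA counts in MLL4KO (5.88%, 95% Wilson interval 1.05 to 27.0%) and 127 of 171 in MLL4WT (74.3%, 67.2 to 80.2%). These intervals cover counting error only and leave out the spread between libraries. Of the 17 MLL4KO counts, 13 were in replicate 1. With PCDHAC2 left out, the rest of the cluster averaged 0.284 ± 0.271 CPM in MLL4KO and 1.21 ± 0.245 CPM in MLL4WT, a log2 ratio of -2.08 with groups that did not overlap. That rest includes PCDHAC1, with 0 counts in MLL4KO and 16 in MLL4WT. The 13 alternate genes alone averaged 0.284 ± 0.271 CPM in MLL4KO and 0.744 ± 0.229 CPM in MLL4WT, and the groups overlapped. Only 51.2% of the sequence words of PCDHAC2 occur in no other gene. A part of the counts of the other PCDHA genes may therefore depend on how shared reads were assigned, which was not tested.

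**Figure D2:**
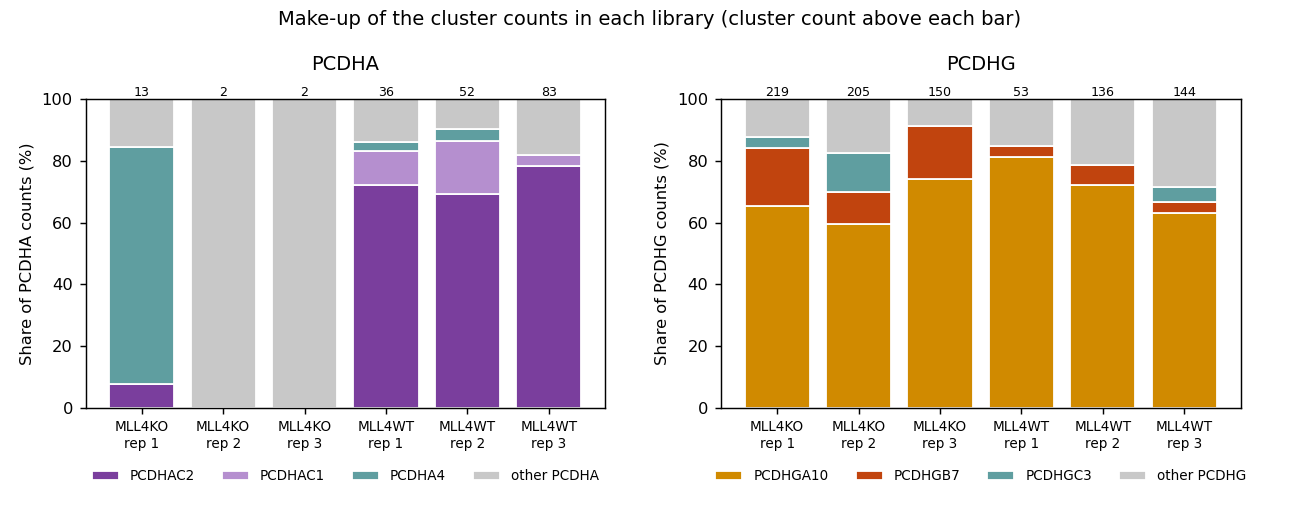
Share of the counts of the PCDHA cluster (left) and the PCDHG cluster (right) taken by named genes in each library, in percent, with the cluster's count above each bar. PCDHAC2 takes most PCDHA counts in all 3 MLL4WT libraries, while 2 of the 3 MLL4KO libraries have only 2 PCDHA counts each, and PCDHGA10 leads PCDHG in every library.

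PCDHGA10 was the most abundant clustered protocadherin in MLL4KO and in MLL4WT. This gamma A subfamily gene (ENSG00000253846, chr5:141412987-141512979) had 143, 122 and 111 counts in MLL4KO replicates 1 to 3, against 43, 98 and 91 in MLL4WT replicates 1 to 3. Scaled for depth these are 7.11, 7.52 and 7.38 CPM in MLL4KO and 6.39, 6.72 and 5.23 CPM in MLL4WT. All MLL4KO libraries lie a little above all MLL4WT libraries, with means of 7.34 ± 0.206 and 6.11 ± 0.785 CPM (SD, n = 3 each). The log2 fold change of 0.28 ± 0.14 did not pass the test (edgeR adjusted p = 0.129).

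PCDHGB7, the next gene downstream of PCDHGA10 and a member of the gamma B subfamily (ENSG00000254122, chr5:141417645-141512979), was higher in MLL4KO. It had 41, 21 and 26 counts in MLL4KO replicates 1 to 3, against 2, 9 and 5 in MLL4WT replicates 1 to 3. The levels were 2.04, 1.29 and 1.73 CPM in MLL4KO and 0.297, 0.617 and 0.287 CPM in MLL4WT. The lowest MLL4KO library stands above the highest MLL4WT library, which is MLL4WT replicate 2. The means were 1.69 ± 0.374 and 0.401 ± 0.188 CPM (SD, n = 3 each), a 4.05-fold rise (log2 2.02 ± 0.39, edgeR adjusted p = 0.00151), and 55 of 14543 tested genes, itself included, were as high or higher. PCDHGB7 passed the filter through MLL4KO alone, so this rank is no separate evidence of the rise. The call was lost without the 2 libraries with neuronal transcripts, when 2 libraries remained on each side (log2 1.57 ± 0.50, edgeR adjusted p = 0.0539). Within the code shared by MLL4KO replicate 1 and MLL4WT replicate 3 the log2 ratio was 2.83, and within that of MLL4KO replicates 2 and 3 and MLL4WT replicate 2 it was 1.29. Only 48.9% of its 31-base words occur in no other gene, so a part of its counts may depend on how shared reads were assigned.

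Within the gamma cluster PCDHGB7 took 15.4 ± 4.55% of the counts in MLL4KO and 4.62 ± 1.74% in MLL4WT (SD, n = 3 each). The shares did not overlap, and a two-sided exact permutation test gave p = 0.1 (adjusted p = 0.2 over 2 genes). That p is the smallest that 3 libraries against 3 allow, so the test could not have passed whatever the shares. PCDHGB7 also entered testing through MLL4KO alone, and its share is built from the same counts. The lack of overlap in its shares is therefore no separate evidence of the rise. PCDHGA10 took 66.3 ± 7.29% in MLL4KO and 72.1 ± 8.97% in MLL4WT, which overlapped (exact permutation p = 0.5, adjusted p = 0.5). These shares do not decide whether the 2 neighbours changed differently, and that difference was not tested otherwise.

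The other 20 gamma genes were low. Together they held 110 counts in MLL4KO and 85 in MLL4WT, or 2.14 ± 1.52 and 1.98 ± 0.784 CPM, and the groups overlapped. PCDHGC3, a C type gene that is known for wide expression outside neurons, had 8, 26 and 0 counts in MLL4KO and 0, 0 and 7 in MLL4WT, so libraries of 1 genotype disagreed by more than the genotypes did. PCDHGA6 had 6, 8 and 5 counts in MLL4KO and 0, 2 and 7 in MLL4WT, an overlap. PCDHGA11, which follows PCDHGB7 on the chromosome, had 5, 5 and 3 counts in MLL4KO and 2, 3 and 1 in MLL4WT, and in CPM its groups overlapped. PCDHGA9 went the other way by count, with 2, 3 and 0 in MLL4KO and 3, 4 and 10 in MLL4WT. Its level was 4.51-fold lower by counting, with a 95% interval of 1.60 to 15.6 that covers counting error only. With no filter its edgeR adjusted p was 0.0875 and that of PCDHGC3 was 0.0559, so neither was called. As a whole PCDHG averaged 11.2 ± 1.35 CPM in MLL4KO and 8.49 ± 0.751 CPM in MLL4WT, 1.31-fold higher in MLL4KO with no overlap, given as a description. The 7 gamma B genes, PCDHGB7 included, summed to 2.10 ± 0.478 CPM in MLL4KO and 0.954 ± 0.362 CPM in MLL4WT. PCDHGB7 held 88 of their 110 counts in MLL4KO and 16 of their 38 in MLL4WT. The 12 gamma A genes, PCDHGA10 included, summed to 8.40 ± 0.787 CPM in MLL4KO and 7.28 ± 0.481 CPM in MLL4WT. PCDHGA10 held 376 of their 430 counts in MLL4KO and 232 of their 282 in MLL4WT.

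**Figure D3:**
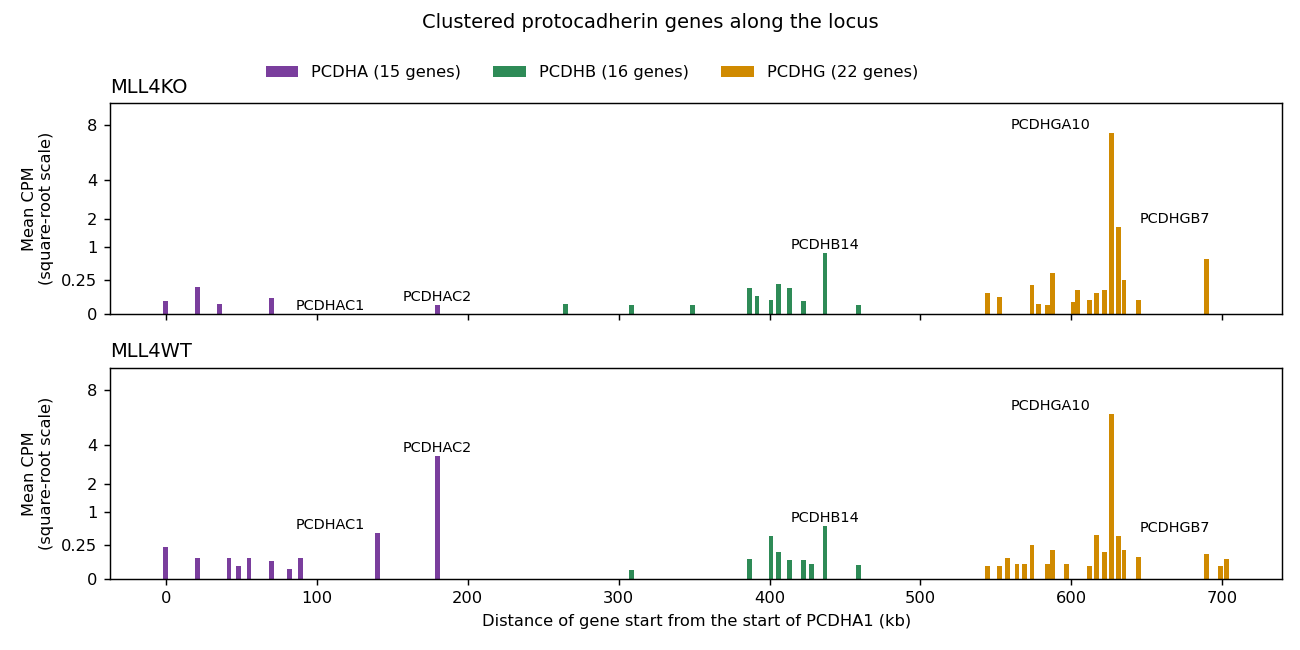
Mean CPM (square-root axis, n = 3 libraries each) of the 53 clustered protocadherins at the distance of each gene's start from that of PCDHA1, in MLL4KO (top) and MLL4WT (bottom), with clusters in colour. The PCDHAC2 bar is at 0.0166 CPM in MLL4KO and 3.36 CPM in MLL4WT, and PCDHGA10 is the tallest bar in both panels.

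The beta cluster lies between the alpha and gamma clusters and its summed level overlapped between the genotypes. The sum was 1.24, 1.91 and 1.46 CPM in MLL4KO replicates 1 to 3 and 1.19, 1.51 and 1.95 CPM in MLL4WT replicates 1 to 3. The groups overlap, with means of 1.54 ± 0.340 and 1.55 ± 0.384 CPM (SD, n = 3 each) and a log2 ratio of -0.01. The sign of this ratio moved with the libraries used, and it was 0.33 without the 2 libraries with neuronal transcripts.

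PCDHB14 (ENSG00000120327, chr5:141222932-141227759), the only beta gene that could be tested, had 16, 15 and 11 counts in MLL4KO and 3, 12 and 10 in MLL4WT. Its levels were 0.796, 0.924 and 0.731 CPM in MLL4KO and 0.446, 0.823 and 0.574 CPM in MLL4WT, where replicate 2 falls within the MLL4KO range. The log2 fold change was 0.35 ± 0.37 (edgeR adjusted p = 0.485). It took 54.1 ± 8.59% of the beta counts in MLL4KO and 40.5 ± 12.8% in MLL4WT (SD, n = 3 each). PCDHB9 had 0, 2 and 0 counts in MLL4KO and 4, 2 and 9 in MLL4WT. Its level was 9.95-fold lower by counting, with a 95% interval of 2.31 to 89.7 that covers counting error only. PCDHB9 was untested with the filter and was called lower in the fit without one (edgeR adjusted p = 0.0240). It overlapped between the groups by count, since replicate 2 had 2 counts in each genotype. In CPM the groups did not overlap, narrowly, with 0.123 in MLL4KO replicate 2 and 0.137 in MLL4WT replicate 2. Both values lie under the detection limit of 3 counts. PCDHB10 had 2, 4 and 4 counts in MLL4KO and 0, 2 and 6 in MLL4WT, and PCDHB3, PCDHB4, PCDHB6 and PCDHB16 were at 0 throughout. Without a filter, 4 of the 45 genes with a count were called, PCDHGB7 as higher and PCDHAC2, PCDHAC1 and PCDHB9 as lower in MLL4KO. Over all 27126 genes of that fit 23.4% were called, a larger share.

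Summed over all 53 genes, the level was 13.0 ± 1.56 CPM in MLL4KO and 14.6 ± 0.336 CPM in MLL4WT (SD, n = 3 each), and the groups overlapped. Levels per kilobase of longest annotated transcript are given for selected genes, and their order differed between the genotypes. In MLL4KO the mean level per kilobase was 1.59 CPM for PCDHGA10, 0.354 for PCDHGB7, 0.169 for PCDHB14, 0.141 for PCDHGC3 and 0.00278 for PCDHAC2. In MLL4WT it was 1.32 CPM for PCDHGA10, 0.0841 for PCDHGB7, 0.127 for PCDHB14, 0.0284 for PCDHGC3 and 0.563 for PCDHAC2. PCDHAC2 was thus the next most abundant after PCDHGA10 in MLL4WT and the lowest of those listed in MLL4KO.

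Most of the factors known to act at the locus were well expressed in both genotypes. Of 14 genes for CTCF, cohesin and its loading or release, 5 rose, 3 fell and 6 were not called. This stands beside 41.4% called over all tested genes. The median log2 fold change was 0.00, against -0.00 over all tested genes. Without MLL4WT replicate 1, 6 of the 14 fell, and falls over all tested genes went from 3136 to 3822. CTCF, which binds the promoters and enhancers of the locus, was at 126 ± 4.96 CPM in MLL4KO and 129 ± 11.5 CPM in MLL4WT (log2 -0.05 ± 0.06, edgeR adjusted p = 0.592), and its sign turned under total-count (0.02) and upper-quartile (0.01) scaling. STAG1, an alternative subunit of cohesin, fell 1.58-fold to 49.6 ± 0.956 CPM in MLL4KO, against 78.7 ± 2.48 CPM in MLL4WT (edgeR adjusted p = 1.63e-06). WIZ, a zinc finger protein that in mice affects clustered protocadherin expression, fell 1.54-fold (48.6 ± 1.55 CPM in MLL4KO and 75.7 ± 9.69 CPM in MLL4WT, edgeR adjusted p = 0.000108). The cohesin core subunit RAD21 rose 1.26-fold (631 ± 10.1 CPM in MLL4KO and 501 ± 33.8 CPM in MLL4WT, edgeR adjusted p = 0.000314). The loader NIPBL rose 1.21-fold (edgeR adjusted p = 0.00165) and the cohesin regulator PDS5A 1.35-fold (edgeR adjusted p = 1.00e-05). CDCA5, which holds sister chromatids together with cohesin, fell 1.16-fold (edgeR adjusted p = 0.00354). Its adjusted p was 0.0585 without the 2 libraries with neuronal transcripts.

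Of 14 genes for silencing factors, 6 rose, 1 fell and 7 were not called, near the 41.4% called over all tested genes. Their median log2 fold change was 0.06. Without MLL4WT replicate 1, 3 of them fell, and falls over all tested genes went from 3136 to 3822. DNMT3B, a de novo DNA methyltransferase that methylates these promoters in mice, rose 1.57-fold (33.0 ± 2.39 CPM in MLL4KO and 20.7 ± 2.51 CPM in MLL4WT, edgeR adjusted p = 0.000127). REST, a repressor of neuronal genes, rose 1.32-fold (80.8 ± 3.98 CPM in MLL4KO and 61.0 ± 0.236 CPM in MLL4WT, edgeR adjusted p = 9.24e-05). SMCHD1, known from mice as a repressor of the clusters, was at 87.5 ± 3.01 CPM in MLL4KO and 83.9 ± 5.89 CPM in MLL4WT (edgeR adjusted p = 0.511). TRIM28, a corepressor of zinc finger proteins, fell 1.13-fold (edgeR adjusted p = 0.0193). This did not hold under total-count scaling (0.104), under upper-quartile scaling (0.0826), without any 1 of the MLL4KO libraries (0.0796 to 0.0964) or without the 2 libraries with neuronal transcripts (0.0946).

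Among 24 partners and processing enzymes, 12 rose, 4 fell and 8 were not called, beside 19.8% higher and 21.6% lower over all tested genes, with a median log2 fold change of 0.15. RET, a receptor kinase that associates with alpha and gamma protocadherins in mouse neurons, rose 2.59-fold (14.3 ± 1.02 CPM in MLL4KO and 5.51 ± 0.717 CPM in MLL4WT, edgeR adjusted p = 6.03e-06). ABI2 and CYFIP2, subunits of the actin-regulating WAVE complex that binds some protocadherin tails, rose 1.39-fold and 1.37-fold (edgeR adjusted p = 8.52e-06 and 0.000137). CYFIP1, the counterpart of CYFIP2, fell 1.14-fold (edgeR adjusted p = 0.00398). APH1A and PSENEN, subunits of the gamma-secretase that cuts protocadherins in the membrane, fell 1.30-fold and 1.32-fold (edgeR adjusted p = 0.000321 and 0.00138). The calls of CYFIP1 and PSENEN were lost without the 2 libraries with neuronal transcripts (edgeR adjusted p = 0.0795 and 0.0591). In that fit 1 member fell, and falls over all tested genes went from 3136 to 1898.

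The non-clustered protocadherins, which lie outside the clusters as separate genes, gave 3 testable members of 12. PCDH7 fell 4.02-fold (5.51 ± 0.915 CPM in MLL4KO and 22.4 ± 0.547 CPM in MLL4WT, edgeR adjusted p = 1.41e-07). PCDH1 rose 1.32-fold (edgeR adjusted p = 0.00751) and PCDH12, an endothelial protocadherin, 2.62-fold (edgeR adjusted p = 0.0149). Their log2 fold changes were 0.40 and 1.39 with all libraries. Without the 2 libraries with neuronal transcripts these were 0.34 and 1.63, with 2 libraries left in each group. Both calls were then lost (edgeR adjusted p = 0.136 and 0.0610). They were also lost without MLL4WT replicate 2 (log2 0.33 and 1.03, edgeR adjusted p = 0.0527 and 0.0759), and that of PCDH12 also without MLL4KO replicate 2 (log2 1.13, edgeR adjusted p = 0.0879). Of 9 other cadherins, 2 could be tested. CDH1, E-cadherin, had a log2 change of 0.04 ± 0.11 (edgeR adjusted p = 0.864) and CDH3, P-cadherin, had -0.08 ± 0.06 (edgeR adjusted p = 0.294).

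Around the clusters, 21 of 23 neighbouring genes could be tested, of which 5 rose, 6 fell and 10 were not called, beside 41.4% called over all tested genes, with a median log2 fold change of 0.05. TAF7, a subunit of the general transcription factor TFIID, lies between the beta and gamma clusters and rose 1.32-fold (77.7 ± 4.72 CPM in MLL4KO and 58.1 ± 7.05 CPM in MLL4WT, edgeR adjusted p = 0.00176). SLC25A2, a mitochondrial ornithine carrier gene in the same interval, had 1 count in MLL4KO and 0 in MLL4WT. DIAPH1, an actin-nucleating formin just past the gamma cluster, fell 1.20-fold (371 ± 3.75 CPM in MLL4KO and 445 ± 13.7 CPM in MLL4WT, edgeR adjusted p = 0.000371). RNF14, a ubiquitin ligase gene, fell 1.27-fold (edgeR adjusted p = 0.00111), WDR55 fell 1.22-fold (edgeR adjusted p = 0.00176) and GNPDA1, of hexosamine metabolism, rose 1.18-fold (edgeR adjusted p = 0.00200). RNF14 overlaps PCDH12 and WDR55 overlaps DND1 in the annotation, and the labels do not say that strand was kept, so reads in the overlaps cannot be told apart. Under total-count or upper-quartile scaling 3 neighbours fell, as they did without MLL4KO replicate 2, MLL4KO replicate 3 or MLL4WT replicate 3, and 3 rose without MLL4KO replicate 2 or MLL4WT replicate 2. Without both libraries with neuronal transcripts 2 neighbours rose and 3 fell.

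**Figure D4:**
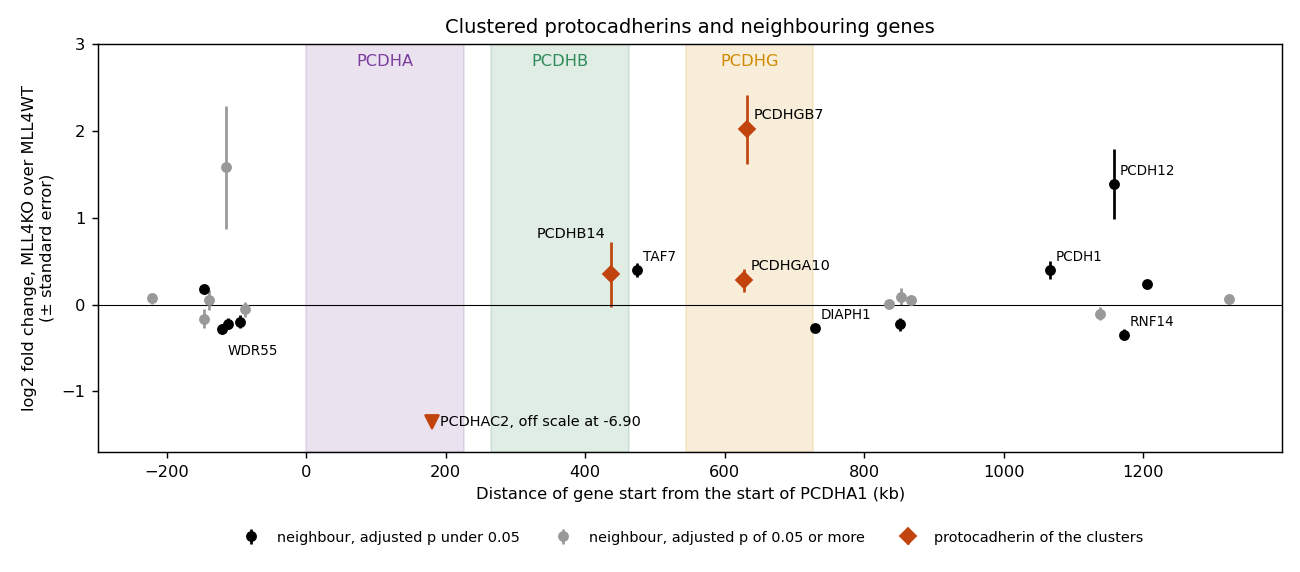
Log2 fold change of MLL4KO over MLL4WT (± standard error, edgeR) for testable clustered protocadherins and 21 neighbouring genes, against the distance of each gene's lower coordinate from the start of PCDHA1, with the 3 clusters shaded. PCDHAC2 lies off the scale at -6.90, and most neighbours on both sides lie close to 0.

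Markers of other cell types bear on genes as low as these. Counts of called markers stand beside 19.8% called higher and 21.6% called lower over all tested genes. Summed over 10 neuronal markers the level was 18.2 to 26.4 CPM in MLL4KO libraries and 23.0 to 26.2 CPM in MLL4WT libraries, with 1 fall among 4 testable genes. SYT1, a synaptic vesicle protein, fell 1.76-fold (edgeR adjusted p = 0.00115). SNAP25, a synaptic membrane protein, had a log2 change of 0.73 ± 0.29 (edgeR adjusted p = 0.0674), and 1 neuronal marker rose under total-count scaling or without MLL4WT replicate 2. The 8 fibroblast markers summed to 31.6 to 36.0 CPM in MLL4KO and 30.2 to 32.6 CPM in MLL4WT, with 2 rises and 1 fall among 4 testable genes. COL3A1, a fibrillar collagen, fell 6.90-fold (edgeR adjusted p = 1.57e-05). COL1A1 and PDGFRB rose 1.22-fold and 1.57-fold (log2 0.28 and 0.65, edgeR adjusted p = 0.0106 and 0.0229). Without the 2 libraries with neuronal transcripts, their log2 fold changes were 0.30 and 0.78, with 2 libraries left in each group. Their calls were then lost (edgeR adjusted p = 0.0795 and 0.0889). That of PDGFRB was also lost without MLL4KO replicate 1 (0.0798) or MLL4KO replicate 2 (0.0712). None of 6 blood cell markers could be tested, and they summed to 1.59 to 2.06 CPM in MLL4KO and 1.03 to 1.71 CPM in MLL4WT. The 10 colon epithelial markers summed to 1082 to 1105 CPM in MLL4KO and 1607 to 1670 CPM in MLL4WT, with 4 falls among 6 testable genes. KRT8 and KRT18, partner keratins whose annotated spans overlap, fell 1.63-fold and 1.60-fold (edgeR adjusted p = 1.35e-07 and 1.56e-07). EPCAM, a surface adhesion protein, fell 1.43-fold (edgeR adjusted p = 3.77e-06). The part of these markers in the protocadherin results was not tested.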

How the data were processed

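Total RNA was column-purified and poly(A)-selected, and the labels' protocols do not state that strand was preserved in library preparation. The authors deposited a table of estimated counts per gene, made from the reads with no normalization in whole numbers over 59715 Ensembl IDs, per the file headers. Per the submitters' processing notes, the tools were Salmon 1.8.0 and DESeq2 1.44.0 with build hg38, in roles the notes do not give. The annotation release was not given in the sources used here.

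Gene names were looked up by ID, and coordinates taken from GENCODE release 29 (GRCh38). In R 4.3.3, low genes were removed by edgeR 4.0.16 (filterByExpr), leaving 14543, which were scaled by TMM and tested by quasi-likelihood with no covariate and 4 residual degrees of freedom. Adjustment was Benjamini-Hochberg over these genes, and "rose" or "fell" marks an adjusted p under 0.05. CPM values use the same scaling. Count ratios carry exact conditional intervals, which cover counting error and not the spread between libraries. Fits were checked on simulated counts. The members, lists and tests were chosen with earlier results of these data known. Full values are given for every called member and the 2 most abundant tested members of a cluster, and from each other list for at most 3 risen and 3 fallen genes with the smallest adjusted p, plus CTCF, RAD21, SMCHD1, TAF7, SLC25A2 and KMT2D. A gene that falls under this rule is not reported here. CDH1, CDH3, SNAP25, DCX and the members too low to test that are given by count were named after their values were seen. Alternatives were other scalings and filters, DESeq2 1.42.0, limma-voom (limma 3.58.1), a replicate block and leaving out each library. A term for the code in the column names and leaving out both libraries of 1 code were added after seeing the data.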

Additional observations from a re-analysis of the deposited data

How the results depend on the processing

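PCDHAC2 stayed called in all 16 alternatives (log2 -8.54 to -6.26), and PCDHGB7 in 15 of 16 (1.57 to 2.52), the exception being the fit without MLL4KO replicate 1 and MLL4WT replicate 3. PCDHGA10 (0.16 to 0.38) and PCDHB14 (0.21 to 0.62, 15 alternatives, since the stricter filter removes it) were not called in any. Without those 2 libraries, 1656 genes rose and 1898 fell over all tested genes, 0 clustered protocadherins rose, and 13 genes of the other lists fell. With no filter 3 clustered protocadherins fell. The log2 ratio of the PCDHA sum ran from -5.15 to -3.54 on leaving out each library. It was -2.08 without the most abundant member, -7.66 over members that pass the filter, -2.88 within the code shared by MLL4KO replicate 1 and MLL4WT replicate 3, and -5.12 without both. Under the same 4 settings PCDHB gave -0.37, 0.41, -0.65 and 0.33, and it ran from -0.19 to 0.20 on leaving out each library. The filter leaves only PCDHAC2 in PCDHA and only PCDHB14 in PCDHB, so that setting is no check on those cluster sums. PCDHAC2 passed it through MLL4WT alone, so the sign of -7.66 was fixed by the filter. PCDHG was 0.69 without its most abundant member and 0.30 to 0.48 on leaving out each library. Uncalled changes turned sign for CTCF (0.017 with total counts, 0.0086 with upper quartiles, -0.096 to 0.015 on leaving out each library), SMCHD1 (-0.0034 with the code term) and KMT2D (0.048 with total counts, 0.040 with upper quartiles, -0.040 to 0.015 on leaving out each library). CTCF was called lower without MLL4WT replicate 1 (edgeR adjusted p = 0.0471) and with the code term (0.0369). DESeq2 did not call COL1A1 (adjusted p = 0.0533) or PDGFRB (0.0858). Same-numbered libraries did not deviate together (correlations of 0.0199, 0.0288 and -0.00131), and MLL4KO replicate 1 correlated best with MLL4WT replicate 3, so the replicate numbers give no pairing. With the replicate block, 2689 genes rose and 3024 fell, and PCDHAC2 (log2 -6.95) and PCDHGB7 (1.97) were called as before. The cause of these shifts was not tested. Differences at or under 3 counts, up to 0.446 CPM in the shallowest library, were not detectable.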

Other observations

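The 7 rows left out by the symbol rule held few counts. PCDHB19P had 1 count in MLL4KO and 0 in MLL4WT, PCDHGB8P had 2 counts in MLL4KO and 0 in MLL4WT, and PCDHGB9P and the antisense gene PCDHB1-AS1 each had 0 in MLL4KO and 1 in MLL4WT. PCDHA14, PCDHB17P and PCDHB18P had 0 counts in all 6 libraries.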
